A study of Saccharomyces cerevisiae with 14 samples.

Results

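The untreated culture of *Saccharomyces cerevisiae* strain NRRL Y-12632 was followed over time on 7 of the 14 arrays of the series, and its 10 min arrays were set against its later arrays. The members were chosen by their labels alone: the untreated 10 min arrays (replicates 1 and 2) against the untreated 60 min arrays (replicates 1 and 2) and the single untreated 120 min array, with the 30 min arrays (replicates 1 and 2) as the step between. All cultures grew in a synthetic complete medium at 30 °C and carried no mutation or transgene named in the labels, and the other 7 arrays came from cultures that received 30 mM 5-hydroxymethylfurfural (HMF), an aldehyde formed from sugars during biomass pretreatment. The untreated culture received none, and 0 min lay 6 h after inoculation in both. Each array compared a test sample labeled with Cy3 with RNA of the untreated culture at 0 min labeled with Cy5, so each value is a ratio to 0 min and absolute levels of a cell type or mating type marker cannot be read. Whether the 0 min RNA was 1 pool or was taken from each replicate is not stated, so a difference between replicates can lie in the test sample or in its reference. The values below are log2 ratios for 6387 open reading frames, centred on the median of all genes of the same array, so that 0 stands for the array median and not for the 0 min level, and a positive difference means a higher value at 10 min than later.

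In a batch culture of yeast, ribosome production, passage through G1 and the general stress program follow the growth rate, and nutrients of the medium are used up over time. Inositol is one of these nutrients. With inositol present the repressor Opi1p counteracts Ino2p and Ino4p, the activators of phospholipid synthesis genes. As inositol runs out these genes are transcribed more.

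The 2 arrays at 10 min differed from each other more than 10 min differed from later. The median absolute difference between replicates over all genes was 0.45 on the log2 scale at 10 min, 0.34 at 30 min and 0.23 at 60 min. That between the mean at 10 min and the mean of the 3 later arrays was 0.21, and means vary less than single arrays. Between single arrays, 10 and 60 min differed by 0.33 in replicate 1 and 0.23 in replicate 2. The 60 min arrays differed from the 120 min array by 0.29 (replicate 1) and 0.40 (replicate 2). Replicate 1 at 10 min had 429 genes at least 2-fold above the array median and 428 at least 2-fold below it, and replicate 2 had 200 and 364. Over all genes, replicate 2 at 10 min correlated at r = 0.71 with replicate 2 at 30 min and at r = 0.39 with replicate 1 at 10 min. Before centring the array medians were 0.28 and 1.29 at 10 min, 0.12 and 0.64 at 30 min, then 0.28 and -0.18 at 60 min, and 0.24 at 120 min. The 10 min arrays stood above the later arrays by 0.68 on average (exact two-sided permutation test, p = 0.1, the smallest that 2 arrays against 3 allow). Most of this lay in replicate 2 at 1.29, while replicate 1 at 0.28 was close to replicate 1 at 60 min and to the 120 min array. The deposited values therefore shifted the median gene by 0.67 towards 10 min, and all differences below are relative to the median of all genes.

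No gene passed the adjusted limit of 0.05 between 10 min and later with limma (0 of 6387, 0%). At an unadjusted p of 0.05, 226 genes (3.54%) passed, 106 of them higher at 10 min (1.66%) and 120 lower (1.88%). That is below the share of 0.05 that such a limit lets through with no change. The other settings called 0 genes as well, except the deposited scale with 7 genes higher at 10 min and the fit without replicate 2 at 10 min with 11 genes. In 1042 genes (16.3%) the 2 arrays at 10 min lay to 1 side of the 3 later arrays, which is called no overlap below. In 561 genes (8.78%) both 10 min arrays lay above all 3 later arrays and in 481 genes (7.53%) both lay below them. These arrays can be split into 2 and 3 in 10 ways, so with no change over time a share of about 0.1 would fall in each direction. Both shares lay below that, so no overlap in a gene does not by itself mark a change with time. On the deposited scale these counts were 2303 and 18, so the split between higher and lower depends on the centring. The gap between the nearest arrays of the 2 sides reached 2-fold in 7 genes higher at 10 min and in 11 lower.

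The change between 10 and 60 min was not shared by the replicates across the genome. Over the 6387 genes the difference of 10 min minus 60 min in replicate 1 correlated at r = -0.02 with that in replicate 2, whereas the same correlation in the HMF cultures was 0.28. These correlations are across genes, which are not independent replicates, and the 10 and 60 min arrays of 1 number may share a culture. A difference of at least 2-fold was seen in 784 genes in replicate 1 and in 429 in replicate 2. Of these, 103 had the same direction in both replicates, 25 higher at 10 min and 78 lower, and 96 had opposite directions. In the plot of the replicates the points spread further along the axis of replicate 1, and *INO1*, *REG2*, *AIF1*, *STE18* and *MIP6* lay away from 0 on both axes.

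**Figure D1:**
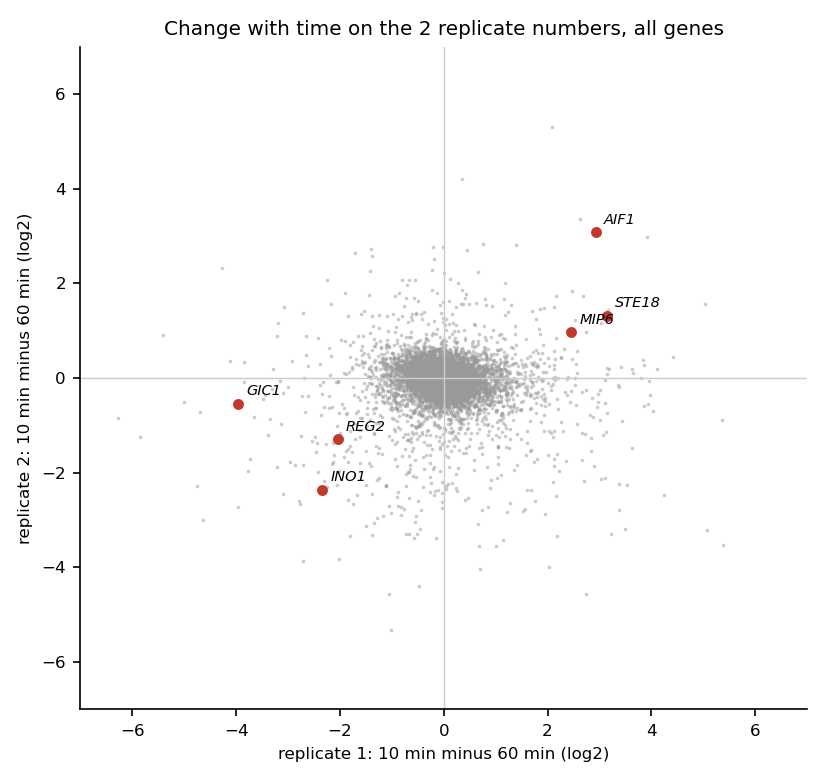
Difference of 10 min minus 60 min (centred log2 ratio) in replicate 1 on the horizontal axis against replicate 2 on the vertical axis, 1 point for each of 6387 genes, with 6 genes of the text in red. The cloud has no slope (r = -0.02), and *GIC1* differs mainly in replicate 1.

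*INO1* (YJL153C), which encodes the inositol-3-phosphate synthase that makes inositol from glucose 6-phosphate, had the smallest p of all genes. Its centred log2 ratio to 0 min was 0.79 and 0.81 on the 10 min arrays, 1.36 and 1.97 on the 30 min arrays, and 3.13, 3.17 and 4.56 on the later arrays. Each time point lay above the one before it with no overlap between arrays. The later mean was 7.07-fold above the 10 min mean (difference -2.82, SE 0.33, limma adjusted p = 0.127), a difference of at least 2-fold in both replicates that did not pass the adjusted limit. In bulk RNA, more cells that express the gene and more RNA per cell cannot be told apart. *INO1* was lower at 10 min under every setting tried, and over those on the log2 scale the difference ranged from -2.14 as deposited to -3.06 without replicate 1 at 60 min.

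The other 3 members of smallest p in the list of fatty acid and phospholipid synthesis, and *ITR1*, were lower at 10 min by smaller amounts that did not pass the test. *INO2* (YDR123C), the activator, was at -0.28 (replicate 1) and -0.43 (replicate 2) at 10 min, 0.21 and 0.20 by 30 min, then 0.51 and 0.34 by 60 min and 0.74 by 120 min. *OPI3* (YJR073C), the methyltransferase of the last steps of phosphatidylcholine synthesis, was at -0.03 and 0.15 at 10 min, 0.37 and 0.73 at 30 min, then 0.83 and 0.69 at 60 min, and 0.84 at 120 min. After centring, both genes were near or below the array median at 10 min and above it on every 30 min and later array. *PSD1* (YNL169C), the mitochondrial phosphatidylserine decarboxylase, was at -0.06 and 0.42 at 10 min and between 0.89 and 1.43 later. *ITR1* (YDR497C), the main inositol transporter, was at -0.19 and 0.60 at 10 min and between 0.91 and 1.11 later. The differences were -0.89 (SE 0.29) for *INO2*, -0.73 (SE 0.20) for *OPI3*, -0.94 (SE 0.37) for *PSD1* and -0.81 (SE 0.36) for *ITR1*, and all 4 had limma adjusted p = 0.999.

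Over the whole list of fatty acid and phospholipid synthesis, 25 of 27 genes were measured, 0 passed the adjusted limit and 8 were lower at 10 min with no overlap (32%, against 7.53% of all genes). The 8 were *INO1*, *OPI3*, *INO2*, *PSD1*, *ITR1*, *CHO1*, *CHO2* and *CKI1*, the last 4 named, like *FAA1* below, after their values were seen. *CHO1* (YER026C), the phosphatidylserine synthase, was at 0.24 and 0.95 at 10 min and between 1.03 and 1.41 later. *CHO2* (YGR157W), the methyltransferase that acts before Opi3p, was at 0.15 and 0.33 at 10 min and between 0.53 and 0.70 later. *CKI1* (YLR133W), the choline kinase, was at 0.26 and 0.02 at 10 min and between 0.34 and 0.43 later. Of the fatty acid genes, only the long chain acyl-CoA synthetase *FAA1* (YOR317W) had no overlap, and it was higher at 10 min, at 0.48 and 0.38 against -0.17 to 0.26 later. The median difference over the list was -0.25 (all genes -0.01). In both replicates 17 of 25 members were lower at 10 than at 60 min (all genes 1501 of 6387). The list median was -0.44 without replicate 2 at 10 min, and on the deposited scale it was 0.43 and only *INO1* kept 10 min arrays below all later ones.

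**Figure D2:**
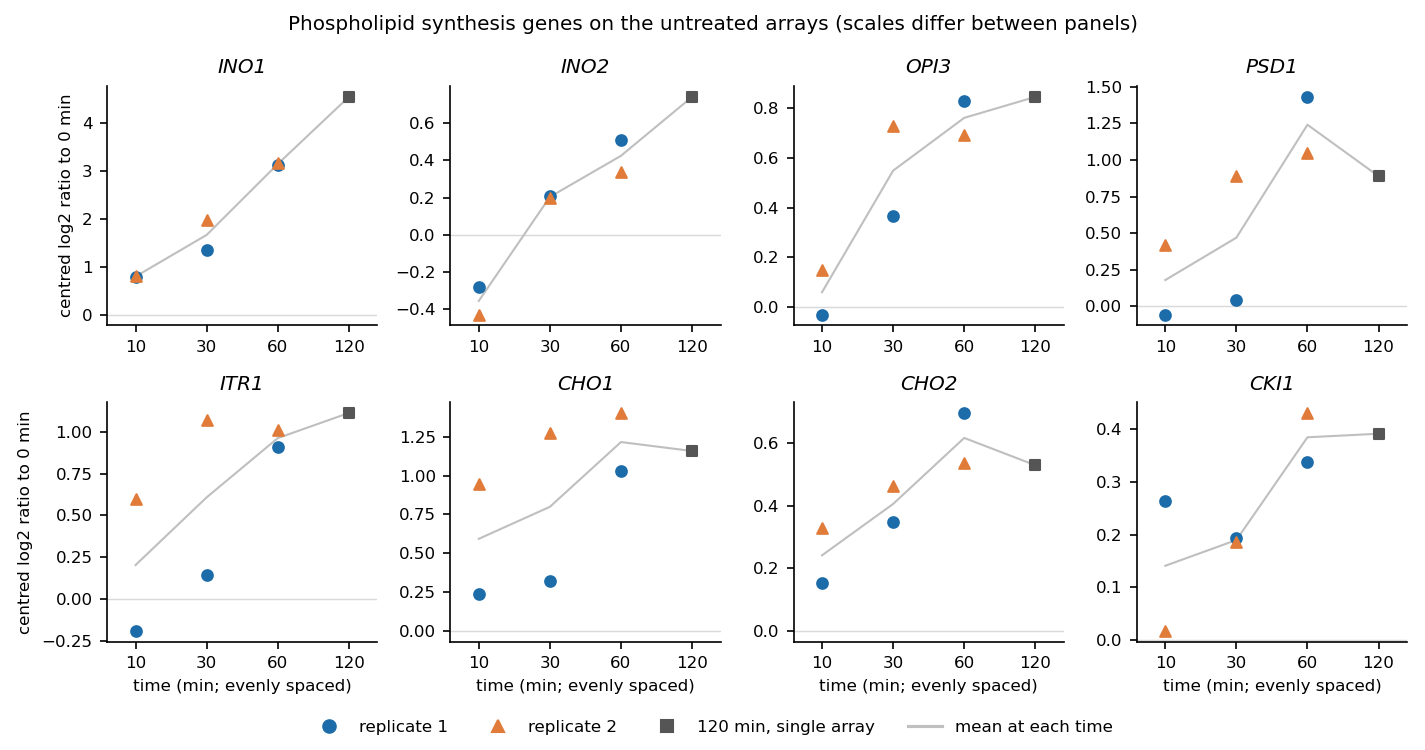
Centred log2 ratio to 0 min (vertical axes, with scales that differ between panels) of 8 phospholipid synthesis genes against time in min, for replicate 1 (circles), replicate 2 (triangles) and the single 120 min array (square), with a line through the mean at each time. In all 8 panels both 10 min arrays lie below the 60 and 120 min arrays, and *INO1* reaches 4.56 at 120 min. With the deposited scale in place of the centred one this holds for *INO1* alone.

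*GIT1* (YCR098C), a permease for glycerophosphoinositol and not a member of that list, was also among the 12 named genes lower at 10 min. It was at 0.27 and 1.19 on the 10 min arrays, 1.05 and 1.03 on the 30 min arrays, and 1.55, 1.45 and 1.98 on the later arrays (difference -0.93, SE 0.26, limma adjusted p = 0.999). The replicates at 10 min differed by nearly as much as 10 min differed from later.

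Of the 12 named genes lower at 10 min, *REG2* had the smallest p after *INO1*. *REG2* (YBR050C), a subunit of the Glc7p phosphatase that acts on the Snf1p pathway of glucose repression, was at -2.02 (replicate 1) and -1.19 (replicate 2) at 10 min, -1.17 and -0.26 by 30 min, then 0.02 and 0.10 by 60 min and 2.01 by 120 min. Its later mean was 4.97-fold above that at 10 min (difference -2.31, SE 0.50, limma adjusted p = 0.997). *MIG2* (YGL209W), a repressor that is itself induced by glucose, was at -0.64 and -0.37 at 10 min, 0.49 and 0.41 at 30 min, then 0.68 and 0.13 at 60 min, and 0.82 at 120 min. After centring, the 10 min arrays of *MIG2* were the only ones below the array median.

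*NRM1* (YNR009W), the corepressor of G1 transcription, was at -1.92 and -0.71 on the 10 min arrays, 0.17 and -0.23 on the 30 min arrays, and 0.04, -0.16 and 0.47 on the later arrays (difference -1.43, SE 0.34, adjusted p = 0.999 with limma). *SNP1* (YIL061C), of the U1 small nuclear ribonucleoprotein, was at -1.23 and -2.58 at 10 min and between -0.97 and 0.29 later. *DBP1* (YPL119C), a DEAD-box RNA helicase, was at 0.70 and -0.85 at 10 min and between 1.19 and 2.04 later. *SMT3* (YDR510W), the ubiquitin-like modifier SUMO, owed most of its difference to 1 array. It was at -0.60 and -0.42 at 10 min, then -0.25 and -0.02 at 60 min, and 1.90 at 120 min. The remaining named genes were the 60S maturation factor *REI1* (YBR267W, difference -0.79), the rRNA methyltransferase *BMT6* (YLR063W, -1.0) and the arginine gene *ARG5,6* (YER069W, -0.98).

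**Figure D3:**
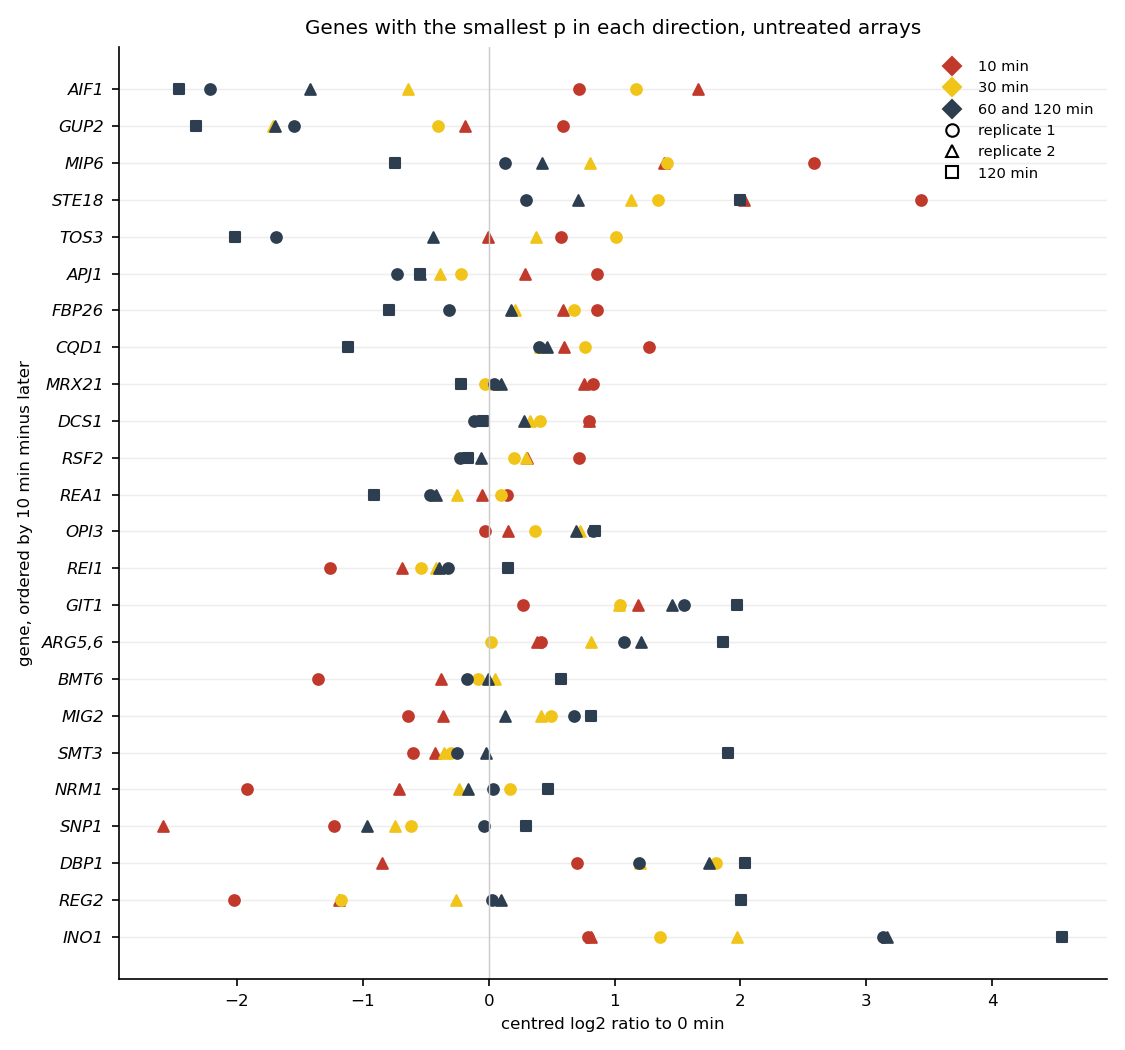
Centred log2 ratio to 0 min (horizontal axis) of the 12 named genes higher and the 12 lower at 10 min, ordered by the difference, with 10 min arrays in red, 30 min in yellow and 60 and 120 min in dark blue, and with the replicate by symbol. The red points lie to 1 side of all dark blue points in each line, which the choice of the genes required, and the distance is widest for *INO1*, *AIF1* and *GUP2*.

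Of the 12 named genes higher at 10 min, *AIF1* (YNR074C), the yeast homolog of a mitochondrial cell death effector, had the widest difference. It was at 0.72 (replicate 1) and 1.66 (replicate 2) at 10 min, 1.17 and -0.64 by 30 min, then -2.21 and -1.42 by 60 min and -2.46 by 120 min (9.32-fold, difference 3.22, SE 0.72, limma adjusted p = 0.997). *MIP6* (YHR015W), an RNA-binding protein, was at 2.59 and 1.39 at 10 min, 1.42 and 0.81 at 30 min, then 0.13 and 0.42 at 60 min, and -0.74 at 120 min (difference 2.05, SE 0.37, limma adjusted p = 0.693). Both passed the adjusted limit on the deposited scale. *GUP2* (YPL189W), a membrane protein with a role in glycerol uptake, was at 0.59 and -0.19 on the 10 min arrays, -0.40 and -1.72 on the 30 min arrays, and -1.54, -1.70 and -2.33 on the later arrays.

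*STE18* (YJR086W), the gamma subunit of the G protein of the mating pathway, was at 3.43 (replicate 1) and 2.03 (replicate 2) at 10 min, 1.35 and 1.13 by 30 min, then 0.30 and 0.71 by 60 min and 1.99 by 120 min. The gap between replicate 2 at 10 min and the 120 min array was small, and the difference of 1.73 (SE 0.38) had limma adjusted p = 0.997. *TOS3* (YGL179C), a kinase that activates Snf1p, was at 0.57 and -0.01 at 10 min, 1.01 and 0.38 at 30 min, then -1.69 and -0.45 at 60 min, and -2.02 at 120 min. *FBP26* (YJL155C), the fructose-2,6-bisphosphatase, was at 0.86 and 0.59 at 10 min and between -0.79 and 0.17 later. *STE18* was within the range of its later arrays by 30 min, whereas *TOS3* was above it on both 30 min arrays. *MRX21* (YPR011C), a mitochondrial carrier, was at 0.83 and 0.76 at 10 min and between -0.22 and 0.10 on all 5 later and 30 min arrays. The remaining named genes included *DCS1* (YLR270W, 0.75), a hydrolase of mRNA cap scavenging, *REA1* (YLR106C, 0.65), an ATPase of 60S maturation, and *RSF2* (YJR127C, 0.66), a zinc finger regulator. They also included *APJ1* (YNL077W, 1.18) and *CQD1* (YPL109C, 1.02), the latter with a role in coenzyme Q distribution.

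The 18 genes with a gap of at least 2-fold included 9 with a symbol. Besides *INO1*, *REG2*, *AIF1* and *GUP2* these were *SCEI*, *SMA1* and *NEJ1*, lower at 10 min, and *HSP30* and *RCK1*, higher, all named after their values were seen. *RCK1* (YGL158W), a protein kinase of the oxidative stress response, was at -2.25 and -2.86 on the 10 min arrays, -4.28 and -4.84 on the 30 min arrays, and -4.78, -4.09 and -4.11 on the later arrays. It was thus far below the array median on every array, and closest to it at 10 min. *NEJ1* (YLR265C), of DNA end joining, was at -3.84 and -1.95 at 10 min and between -0.91 and 0.02 later. *SMA1* (YPL027W), a sporulation gene, ranged from -3.95 at 30 min in replicate 1 to 3.21 at 120 min. Signal levels were not checked, so it is not known whether these genes lay near background. Open reading frames without a symbol made up 137 of the 481 genes lower at 10 min with no overlap and 74 of the 561 higher, from 1160 measured. Of the 1160, 11.8% were thus lower and 6.38% higher (all genes 7.53% and 8.78%).

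Among the amino acid synthesis lists, the arginine list and the sulfate and methionine list had the largest shares lower at 10 min with no overlap. The branched-chain, histidine, lysine and aromatic lists had shares from 7.69% to 16.7%. Of the 9 lysine genes, 2 were higher at 10 min with no overlap (22.2%, all genes 8.78%) and 1 was lower. Of the 10 arginine genes, *ARG3* (YJL088W), the ornithine carbamoyltransferase, was at 0.47 (replicate 1) and 0.11 (replicate 2) at 10 min, -0.21 and 0.58 by 30 min, then 1.11 and 1.38 by 60 min and 1.57 by 120 min. *ARG5,6* was at 0.42 and 0.39 at 10 min and between 1.08 and 1.86 later, and *ARG8* (YOL140W), the acetylornithine aminotransferase, was at 0.41 and 0.26 and between 0.90 and 1.36. *ARG1* (YOL058W), the argininosuccinate synthetase, overlapped, at 0.66 and -0.55 at 10 min and between 0.49 and 0.94 later. *ARG3*, *ARG5,6* and *ARG8* were lower with no overlap (3 of 10, 30%, all genes 7.53%). *ARG4*, named for its count, was higher in this sense, with a difference that turned negative after quantile normalization and after scaling. None of the 10 passed the adjusted limit (0 with limma, 3 at an unadjusted p of 0.05). The list median was -0.24, or 0.44 as deposited, -0.54 without replicate 1 at 10 min and -0.02 without replicate 2.

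Of the 31 genes of sulfate assimilation and methionine synthesis, 7 were lower at 10 min with no overlap (22.6%, all genes 7.53%). *MET7* was higher and 0 passed the adjusted limit. *SAM2* (YDR502C), an S-adenosylmethionine synthetase, was at -0.12 and 0.44 at 10 min, 0.14 and 0.68 at 30 min, then 0.86 and 0.83 at 60 min, and 0.76 at 120 min. *MET6* (YER091C), the methionine synthase, was at -0.05 and 0.39 at 10 min and between 0.75 and 0.91 later. *MET2* (YNL277W) of homocysteine synthesis and *MET8* (YBR213W) of siroheme synthesis differed by -0.56 (SE 0.26) and -0.52 (SE 0.25). The list median was -0.12, or 0.55 as deposited, -0.21 after quantile normalization, -0.19 after scaling and -0.06 without replicate 2 at 60 min. *SAM2* and *MET6* lay close to each other on all 7 arrays, clearly above 0 in replicate 2 at 10 and 30 min and near 0 in replicate 1.

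In the list of ergosterol synthesis, sterol uptake and oxygen-regulated genes, 9 of 40 were lower at 10 min with no overlap (22.5%, all genes 7.53%). Of these 40, 0 were higher and 0 passed the adjusted limit. *ERG25* (YGR060W), a C-4 methyl sterol oxidase, was at -0.78 and -0.49 on the 10 min arrays, -0.56 and -0.26 on the 30 min arrays, and 0.17, -0.35 and 0.19 on the later arrays. *ERG2* (YMR202W), a sterol isomerase, was at -0.67 and -0.46 at 10 min and between -0.33 and 0.13 later. The hypoxic repressor *ROX1* (YPR065W) and its target *ANB1* (YJR047C) had differences of -0.55 (SE 0.35) and -0.45 (SE 0.21). The list median was -0.16, with 0.51 as deposited, -0.09 without replicate 1 at 10 min, -0.29 without replicate 2 and -0.26 without the 120 min array. In both replicates 21 of 40 members were lower at 10 than at 60 min (all genes 1501 of 6387).

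**Figure D4:**
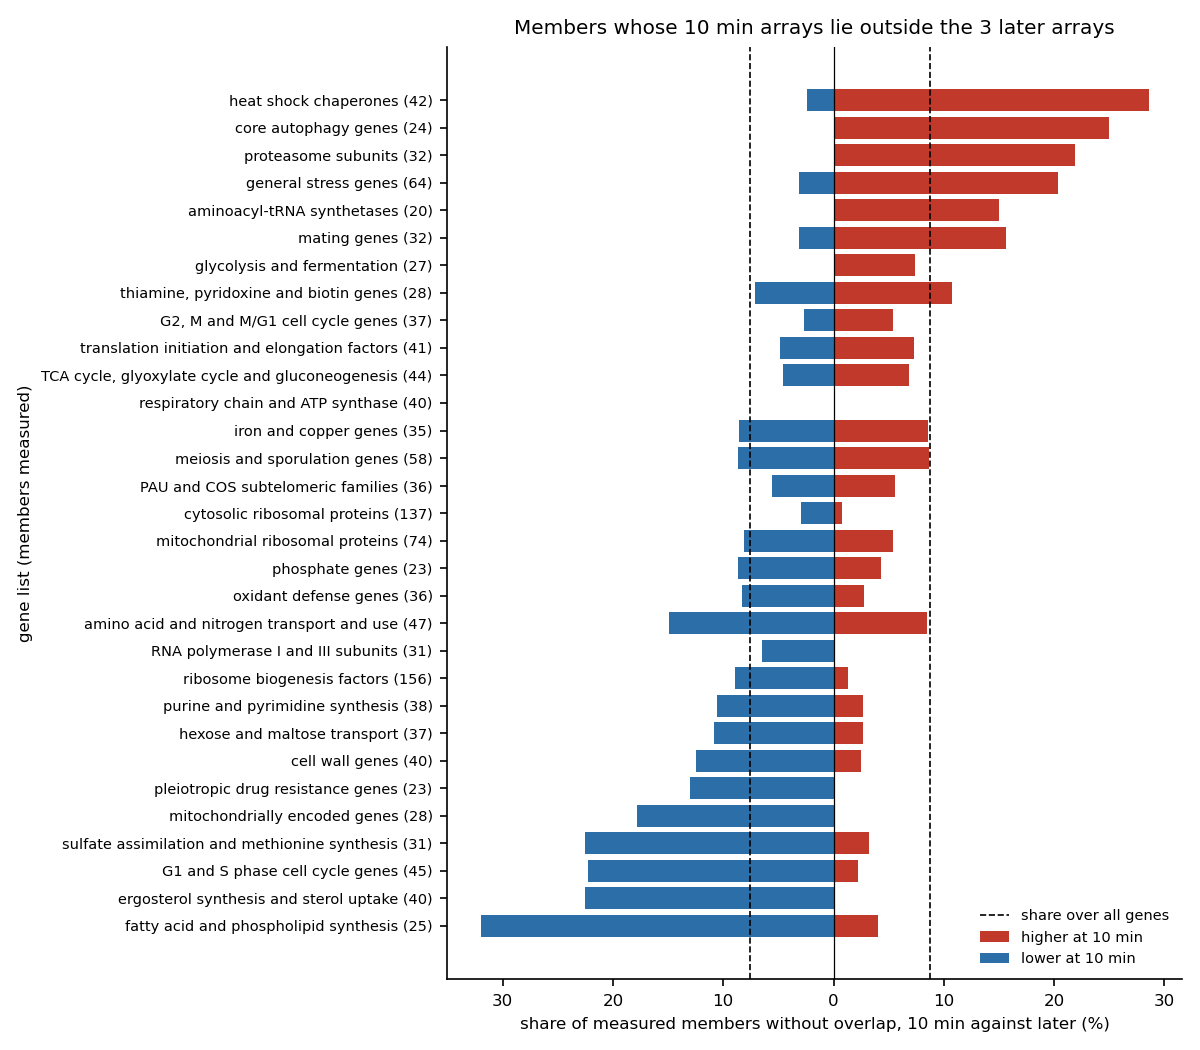
Share of the measured members of each gene list of at least 20 genes (vertical axis, number measured in brackets) whose 10 min arrays lay above (red) or below (blue) all 3 later arrays after centring, in percent, with dashed lines at the shares over all genes (8.78 and 7.53). Phospholipid, sterol, G1/S and sulfate genes have blue shares of 22.2 to 32%, and chaperone, autophagy, proteasome and stress genes have red shares of 20.3 to 28.6%. On the deposited scale 36.1% of all genes would be red and 0.282% blue.

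Of 45 genes of the G1 and S phases measured, 10 were lower with no overlap (22.2%, all genes 7.53%). *PRI1* was higher and 0 passed the adjusted limit. *GIC1* (YHR061C), an effector of Cdc42p in bud emergence, was at -3.30 (replicate 1) and -0.32 (replicate 2) at 10 min, 0.10 and 0.28 by 30 min, then 0.68 and 0.22 by 60 min and -0.19 by 120 min. *YOX1* (YML027W), a repressor at the M/G1 boundary, was at -0.23 and -0.47 at 10 min and between 0.04 and 0.68 on the later arrays. *POL12* (YBL035C), a subunit of DNA polymerase alpha, was at -0.84 and -0.26 at 10 min and between 0.00 and 0.34 later. *RNR1* (YER070W), the large subunit of ribonucleotide reductase and named after its values were seen, was at -1.11 and -0.04 at 10 min and between 0.12 and 0.48 later. The list medians on the arrays were -0.62 and -0.10 at 10 min, -0.27 and 0.04 at 30 min, and between -0.05 and 0.00 later. The median difference was -0.32, against 0.35 as deposited, -0.10 without replicate 1 at 10 min and -0.62 without replicate 2. In 18 of 45 genes the 10 min value was below the 60 min value in both replicates (all genes 1501 of 6387). In replicate 2 it was above in 22 of 45.

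Ribosome biogenesis factors and general stress genes differed between the replicates. The array medians of the 156 ribosome biogenesis factors were -0.81 and -0.05 at 10 min, -0.43 and -0.20 at 30 min, then -0.07 and -0.25 at 60 min, and -0.04 at 120 min. Those of the 64 general stress genes were 1.21 and 0.05 on the 10 min arrays, 0.78 and 0.12 on the 30 min arrays, and 0.15, 0.22 and 0.25 on the later arrays. In replicate 1 the 10 and 30 min arrays stood apart from all others in both lists, and in replicate 2 they did not. The median difference of 10 minus 60 min was -0.72 in replicate 1 and 0.22 in replicate 2 for ribosome biogenesis, and 1.12 and -0.15 for the stress genes. The 10 min value was above the 60 min value in 5 of 156 ribosome biogenesis factors in replicate 1 and in 131 of 156 in replicate 2. For the 137 cytosolic ribosomal proteins these counts were 12 and 115, and for the 64 stress genes they were 59 and 24. Over all 6387 genes they were 3150 and 3104.

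Each replicate at a time was 1 sample on 1 array, so culture and slide cannot be told apart, and the pooled values of these lists rested on replicate 1 at 10 min. Of the ribosome biogenesis factors, 14 were lower at 10 min with no overlap (8.97%, near the 7.53% of all genes), *REA1* and *DBP10* were higher and 0 passed the adjusted limit. Their median difference was -0.27 with all arrays, 0.40 as deposited, 0.08 without replicate 1 at 10 min and -0.65 without replicate 2. *REI1* was at -1.26 (replicate 1) and -0.69 (replicate 2) at 10 min, -0.54 and -0.42 by 30 min, then -0.33 and -0.39 by 60 min and 0.15 by 120 min. *RRP36* (YOR287C) and *UTP18* (YJL069C), of early 18S rRNA processing, differed by -1.01 (SE 0.37) and -0.94 (SE 0.36). The 137 cytosolic ribosomal proteins had a median difference of -0.16, or 0.52 as deposited and 0.02 without replicate 1 at 10 min, -0.32 without replicate 2 and -0.06 without the 120 min array. With no overlap, *RPL17A*, *RPL2A*, *RPS0A* and *RPS0B* were lower (4 genes, 2.92%, below the 7.53% of all genes), and 0 passed the adjusted limit. Their 4 members of smallest p, *RPL29*, *RPL39*, *RPL36A* and *RPL36B*, had differences of -0.43 to -0.62, and the last 2 are near-identical copies whose signals may not be separate.

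Of the general stress genes, 13 were higher at 10 min with no overlap (20.3%, against 8.78%), *SOD2* and *DDR2* were lower and 0 passed the adjusted limit. Their median difference was 0.48 with all arrays, -0.16 without replicate 1 at 10 min and 1.06 without replicate 2. *DCS1* was at 0.79 and 0.80 at 10 min, 0.41 and 0.32 at 30 min, then -0.12 and 0.28 at 60 min, and -0.04 at 120 min. *UGA2* (YBR006W), of 4-aminobutyrate use, was at 1.20 and 0.86 at 10 min and between -0.03 and 0.60 later. *TPS3* (YMR261C), of trehalose synthesis, was at 1.06 and 0.35 at 10 min and between -0.32 and 0.29 later. In *DCS1* and *UGA2* the replicates at 10 min lay close together, unlike the median of the list.

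**Figure D5:**
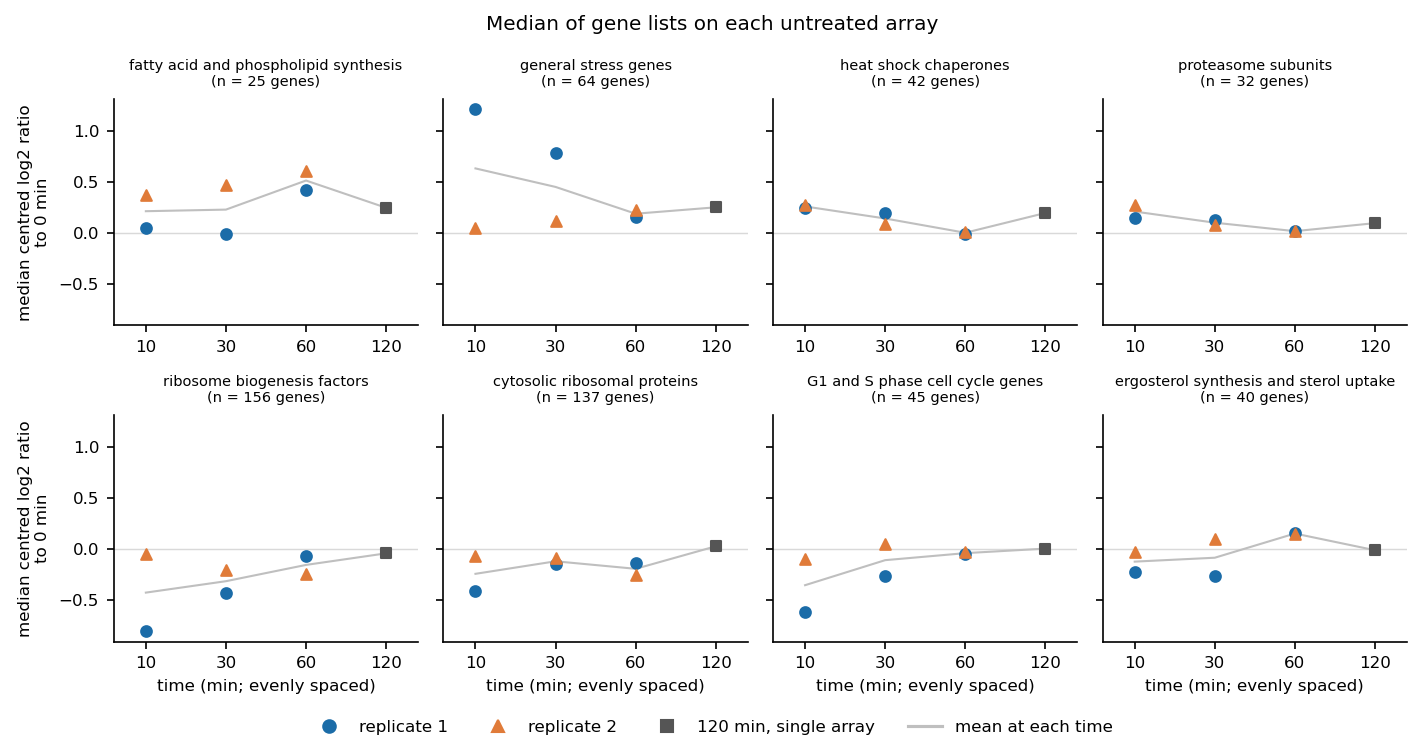
Median centred log2 ratio to 0 min (vertical axis) of 8 gene lists on each untreated array against time in min, for replicate 1 (circles), replicate 2 (triangles) and the single 120 min array (square), with a line through the mean at each time. In replicate 1 the stress genes stand at 1.21 and ribosome biogenesis at -0.81 at 10 min, while in replicate 2 they stand at 0.05 and -0.05. On the deposited scale all lists shift by the array medians, and the lower lists turn positive in the difference of 10 min minus later.

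Of 42 heat shock chaperones, 12 were higher with no overlap (28.6%, all genes 8.78%), *SSB1* was lower and 0 passed the adjusted limit. The list medians were 0.25 and 0.27 on the 10 min arrays, 0.19 and 0.08 on the 30 min arrays, and -0.01, 0.01 and 0.19 on the later arrays. *HSP30* (YCR021C), a plasma membrane heat shock protein, was at 1.84 (replicate 1) and 1.06 (replicate 2) at 10 min, 2.54 and 0.36 by 30 min, then -1.19 and -0.11 by 60 min and -1.28 by 120 min (difference 2.31, SE 1.01, limma adjusted p = 0.999). *BTN2* (YGR142W), which sorts misfolded proteins, was at 1.74 and 0.60 at 10 min, 2.31 and 0.12 at 30 min, then -1.0 and -0.36 at 60 min, and -0.49 at 120 min. In both genes replicate 1 was highest at 30 min, and replicate 2 at 30 min lay between its 10 and 60 min values.

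The 2 Hsp40 cochaperones named were below the array median on all later arrays. *SIS1* (YNL007C) was at 0.21 and 0.05 at 10 min, 0.68 and 0.01 at 30 min, and between -0.59 and -0.52 on the 3 later arrays. *APJ1* (YNL077W) was at 0.86 and 0.29 on the 10 min arrays, -0.22 and -0.39 on the 30 min arrays, and -0.73, -0.55 and -0.55 on the later arrays, and was thus below the array median by 30 min. The disaggregase *HSP104* (YLL026W) was at 1.49 and 0.45 at 10 min, 1.10 and -0.08 at 30 min, and between -0.34 and -0.14 later. The small heat shock protein *HSP26* (YBR072W) and the Hsp70 *SSA4* (YER103W), named after their values were seen, differed by 0.71 (SE 0.46) and 0.63 (SE 0.34). The median difference over the list was 0.09, with 0.16 without replicate 1 at 10 min, 0.15 without replicate 2 and 0.20 without the 120 min array. In 20 of 42 genes the 10 min value was above the 60 min value in both replicates (all genes 1368 of 6387). In 2 it was below in both (all genes 1501 of 6387).

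Proteasome subunits lay close together. Of 32 genes, 7 were higher at 10 min with no overlap (21.9%, all genes 8.78%), 0 were lower and 0 passed the adjusted limit. *PRE9* (YGR135W), an alpha subunit of the core, was at 0.51 (replicate 1) and 0.18 (replicate 2) at 10 min, 0.06 and -0.08 by 30 min, then -0.11 and -0.35 by 60 min and -0.12 by 120 min. *RPN9* (YDR427W) and *RPN11* (YFR004W) of the regulatory lid differed by 0.38 (SE 0.19) and 0.36 (SE 0.19), and the core subunit *PRE5* (YMR314W) by 0.29 (SE 0.18). The list median was 0.11, with 0.20 without replicate 1 at 10 min and 0.03 without replicate 2. In both replicates 18 of 32 genes were higher at 10 than at 60 min (all genes 1368 of 6387). Lower in both were 0 of 32 (all genes 1501 of 6387). Of 24 core autophagy genes, 6 were higher with no overlap (25%, all genes 8.78%), 0 were lower and 0 passed the adjusted limit. The list median was 0.23, or 0.15 without the 120 min array. *ATG4* (YNL223W), the protease that processes Atg8p, was at 0.37 and 0.09 at 10 min and between -1.25 and 0.06 later, and *ATG1* (YGL180W), the starting kinase, was at 0.26 and 0.23 and between -0.56 and 0.19. For both the 120 min array was the lowest. *ATG9* (YDL149W) and *ATG29* (YPL166W) had differences of 0.51 (SE 0.24) and 0.75 (SE 0.33), and both overlapped.

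Mating genes had 5 of 32 members higher at 10 min with no overlap (15.6%, all genes 8.78%), namely *STE18*, *KAR4*, *STE4*, *RME1* and *FUS2*. *FIG1* was lower and 0 passed the adjusted limit. The list median was 0.13, with 0.03 without the 120 min array or without replicate 2 at 10 min, 0.08 without replicate 1 at 10 or 60 min and 0.20 without replicate 2 at 60 min. The transcription factor *KAR4* (YCL055W) was at 0.83 and 0.52 at 10 min, 0.25 and -0.06 at 30 min, then -0.36 and 0.19 at 60 min, and -0.41 at 120 min. *PRM3* (YPL192C), of nuclear fusion, overlapped at -1.04 and -0.06 against -0.48 to 3.01. *MF(ALPHA)2* (YGL089C), a pheromone precursor, overlapped too and ranged from -5.09 to -0.28 over the 7 arrays. Of the 28 mitochondrially encoded open reading frames, *SCEI*, Q0017, Q0032, Q0143 and Q0182 were lower at 10 min with no overlap (17.9%, all genes 7.53%). Besides these 5 genes, 0 were higher, and 0 of the list passed the adjusted limit, while *AI3*, an intron-encoded protein, overlapped. *SCEI* (Q0160), the homing endonuclease of the omega intron, was at -3.56 and -3.78 on the 10 min arrays, 0.65 and -0.36 on the 30 min arrays, and -0.85, 0.09 and -2.12 on the later arrays. The list medians were 0.11 (replicate 1) and 0.61 (replicate 2) at 10 min, 1.03 and -0.06 by 30 min, then 0.83 and 0.53 by 60 min and 1.62 by 120 min. Their median difference of -0.64 was 0.03 as deposited, -0.25 without the 120 min array and -0.34 without replicate 1 at 10 min.

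The step from 10 to 30 min and the step from 30 min to later were tested apart. Between 10 and 30 min limma called 0 genes and 109 passed an unadjusted p of 0.05 (1.71%), 44 higher (0.689%) and 65 lower (1.02%) at 10 min. Between 30 min and later it called 0 genes and 125 passed (1.96%), 78 higher (1.22%) and 47 lower (0.736%) at 30 min. The test of any difference between the 4 untreated times called 0 genes and 173 passed unadjusted (2.71%). *INO1* differed by -0.87 between 10 and 30 min and by -1.95 between 30 min and later. *MIG2* and *NRM1* lay within their later range by 30 min in replicate 1 or in both, while *REG2* did not. *AIF1* and *TOS3* had their difference between 30 min and later, at 2.30 and 2.08.

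With HMF the same contrast had 142 genes past the adjusted limit (2.22%), and the difference between the HMF and untreated changes itself had 0 (439 at an unadjusted p of 0.05, 6.87%). The 2 courses share no test array, but both are ratios to untreated 0 min RNA. *INO1* was lower at 10 min in both. It was at 0.97 and 0.53 at 10 min with HMF and at 2.93, 4.0 and 4.01 later (difference -2.89, adjusted p = 0.0236 with limma), and the HMF difference minus the untreated one was -0.07 (adjusted p = 1). In the fatty acid and phospholipid list, 14 of 25 genes were lower at 10 min with no overlap with HMF (56%, against 21.2% of all genes), with a median difference of -0.42.

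Some named genes lay in opposite directions in the 2 courses. *STE18* was at -0.29 and -0.10 at 10 min with HMF and at 1.85, 1.38 and 0.47 later, and the HMF difference minus the untreated one was -3.16 (limma unadjusted p = 3.06e-04, adjusted p = 0.283). *APJ1* was at -0.83 and -1.10 at 10 min with HMF and between -0.40 and 0.01 later, and its HMF difference minus the untreated one was -1.90 (limma adjusted p = 0.467). *REG2* overlapped with HMF, at -0.11 and -0.91 at 10 min and at -0.86, -1.13 and -1.19 later (difference 0.55, limma unadjusted p = 0.31). Its later untreated arrays were at 0.02, 0.10 and 2.01 (limma adjusted p of the HMF minus untreated difference = 0.467). Ribosome biogenesis had a median difference of -1.18 with HMF, against -0.27 without it. With HMF 143 of 156 genes were lower at 10 min with no overlap (91.7%, all genes 21.2%), against 14 of 156 without it. General stress genes had a median of 1.18 with HMF, with 47 of 64 higher (73.4%, against 16.8% of all genes), against 0.48 and 13 of 64. For these lists the untreated values of replicate 1 at 10 min lay nearer to those with HMF than those of replicate 2 did.

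Leaving out replicate 2 at 10 min left 1 array at 10 min, which was taken to vary like the other groups, and moved the calls of 10 min against later most, with 10 genes higher and 1 lower at 10 min. The lower gene was *GIC1*, and the higher genes with a symbol were *MIP6*, *STE18*, *LPX2*, *ORC3*, *GAS2*, *NGL3*, *SQS1* and *THI20*, named after their values were seen. *ORC3* (YLL004W), of the origin recognition complex, was at 3.52 in replicate 1 and 0.34 in replicate 2 at 10 min and between -0.09 and 0.33 later. *LPX2* (YKL050C) was at 3.66 and -0.08 at 10 min and between -0.45 and -0.03 later, and *SQS1* (YNL224C), an activator of the Prp43p helicase, was at 3.28 and 0.29 and between -0.04 and 0.13. In these 3 genes the high value was that of replicate 1 alone. A fit without replicate 1 at 10 min called 0 genes, with 150 at an unadjusted p of 0.05.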

How the data were processed

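Values were the log2 ratios of test (Cy3) over untreated 0 min reference (Cy5) that the authors deposited for 6387 open reading frames on 14 arrays. Slides had been scanned with GenePix by the authors, who removed local background, inspected spots manually and scaled every slide by the spiked-in control *CAB*. How duplicate spots were combined is not given in the sources used here. Before testing, the authors also filtered out probes with low expression values. No such filter was applied here, so the 6387 may include genes of weak signal. Spot signals were not used here, so the precision rests on the number of arrays.

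Each array was centred on its median. Group means for the 8 combinations of treatment and time were estimated in limma (version 3.58.1, R version 4.3.3) by lmFit, followed by eBayes, which gave 6 residual and 2.53 prior degrees of freedom. The contrast weighted the 3 later arrays equally, and the single 120 min array was taken to vary like the other groups. The Benjamini-Hochberg adjustment covered all genes, and the limit was 0.05. SE is the moderated standard error. The code of the fit was run on simulated data with noise independent between genes. That setting lacks the differences shared by many genes of an array that were seen here, so it does not test the fit under them. Whether a replicate number marks a shared culture is not stated, so p-values measure the spread between these arrays.

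The RefSeq table for R64 matched 5840 systematic names and gave 5227 a symbol. The members and 39 gene lists were chosen with earlier results of these data known. The lists described are, apart from the lysine list, those that stood furthest from the shares over all genes, with ribosome, mating and stress lists added. Genes were named as the 12 of each direction with the smallest p among genes with a symbol and no overlap, since 0 passed the adjusted limit, and as up to 4 members of smallest p in each list described. Members outside this rule that stand for a count of 5 or fewer were named after their values were seen. Of the lists described, 2 genes of the phospholipid list were not matched. No list was tested, and promoter sequences were not used here. Alternatives were the deposited scale, quantile normalization, scaling to 1 median absolute deviation, the 7 untreated arrays alone, a replicate block, 60 min alone, the later arrays as 1 group, robust eBayes and leaving out each array.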

Additional observations from a re-analysis of the deposited data

How the results depend on the processing

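With 6 residual degrees of freedom and replicates at 10 min that differed by more than 10 min differed from later, the number of arrays limits every result. The counts of genes past the adjusted limit depended on the scale and on single arrays, and the cause was not tested. On the deposited scale 7 genes were higher at 10 min than later, 1 was higher at 30 min than later, 4 were lower in the HMF minus untreated difference and 11 differed between any untreated times. After scaling to 1 median absolute deviation 4 differed between any times. When arrays were left out in turn, 10 min against later gave 0 to 10 higher and 0 to 1 lower, and 10 min against 30 min gave 0 to 6 higher and 0 to 9 lower. Likewise 30 min against later gave 0 to 13 higher, the HMF minus untreated difference 0 to 4 lower and any change 0 to 4. The upper values came without replicate 2 at 10 min or, for the 9 and the 13, without replicate 2 at 30 min.

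A replicate block called 0 genes in 10 min against later (366 at an unadjusted p of 0.05), and with the untreated arrays alone also 0 (373). The labels state no pairing, and the difference between replicates correlated at 0.26 between 10 and 30 min, 0.16 between 10 and 60 min and 0.16 between 30 and 60 min.

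Of 101 named genes, 72 kept their direction under every scaling, fit and set of arrays tried, and 26 changed it on the deposited scale, by its construction. There they stood at 0.060 for *RPL29*, 0.17 for *RPL39*, 0.23 for *RPL36A*, 0.25 for *RPL36B*, 0.032 for *ARG1*, 0.022 for *SAM2*, 0.11 for *MET2*, 0.16 for *MET8*, 0.028 for *MET6*, 0.024 for *AI3*, 0.22 for *ANB1*, 0.038 for *ERG25*, 0.16 for *ERG2*, 0.12 for *ROX1*, 0.070 for *YOX1*, 0.071 for *CHO1*, 0.33 for *CHO2*, 0.43 for *CKI1*, 0.41 for *RPL17A*, 0.43 for *RPL2A*, 0.41 for *RPS0B*, 0.53 for *RPS0A*, 0.0021 for *DDR2*, 0.52 for *SSB1*, 0.30 for *FIG1* and 0.47 for *Q0182*. *ARG4* stood at -0.046 after quantile normalization and -0.13 after scaling to 1 median absolute deviation. With single arrays left out, *GAS2* ranged from -0.60 without replicate 1 at 10 min to 3.26 without replicate 2, and *NGL3* from -0.26 to 3.13.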
